A study of Mus musculus with 8 samples.

Results

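The genes described here make prostaglandins and receive prostaglandin E2 in tissue that senses pain. They are 10 genes, chosen by symbol: the cyclooxygenases Ptgs1 and Ptgs2, the synthases Ptges, Ptges2, Ptges3 and Ptgds, and the EP receptors Ptger1, Ptger2, Ptger3 and Ptger4. All 10 had a row among the 18560 genes of the deposited table, and all 10 passed the filter on low counts, which kept 15098 genes. RNA sequencing compared mouse dorsal root ganglia, the clusters of sensory nerve cell bodies beside the spinal cord, in 4 libraries labelled WT and 4 labelled cKO. The cKO animals carry a conditional deletion of Alyref, which encodes an adaptor for export of mRNA from the nucleus, and the genotype label of all 8 libraries also carries P60, which the labels do not spell out. The labels name no Cre driver, targeted cells, strain, sex or inflammatory treatment, and do not say whether animals were pooled.

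As background, phospholipases free arachidonic acid from membranes, cyclooxygenases turn it into prostaglandin H2, and terminal synthases turn that into single prostaglandins. Prostaglandin E2 sensitises nociceptors, the neurons that report pain, through 4 EP receptors. Ptger1 is linked to calcium signals, Ptger2 and Ptger4 to stimulation of cyclic AMP, and Ptger3 mainly to its inhibition. Drugs such as aspirin act on the cyclooxygenases.

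At the RNA level this pathway was dominated by 1 synthase, and no gene of it passed the test between WT and cKO. Ptgds, which makes prostaglandin D2, stood at 2476.6 TPM (a share of transcripts, corrected for length and scaled to the same total in each library) over the 8 libraries. Inducible Ptgs2 and the 4 receptors lay between 0.794 and 3.08 TPM. None of the 10 genes had an adjusted p below 0.05 in edgeR's quasi-likelihood test, or an unadjusted p below 0.05, and none had groups free of overlap. Over all 15098 tested genes, 0% passed the adjusted threshold, 1.65% had an unadjusted p below 0.05, and 1.52% had groups that did not overlap. Library depth was 15522915 to 16482614 estimated counts.

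The sequence before the annotated start of 5 members is shown so that the cyclooxygenases, the synthase whose level swung most with 1 library, and the highest and lowest receptor can be set side by side. Each is the 250 bases upstream of the start in RefSeq's promoter table for GRCm38.p6, read 5′ to 3′ on the gene's own strand. Capitals mark matches on either strand to the GC box GGGCGG (reverse strand CCGCCC), which Sp1-type factors bind, or to CCAAT on the gene's strand.
Ptgs1, chr2:36230176-36230425, plus strand: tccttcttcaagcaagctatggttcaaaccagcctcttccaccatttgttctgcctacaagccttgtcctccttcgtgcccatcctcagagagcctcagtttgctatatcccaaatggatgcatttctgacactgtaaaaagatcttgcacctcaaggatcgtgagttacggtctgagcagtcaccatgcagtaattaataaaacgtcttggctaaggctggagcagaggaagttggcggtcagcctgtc
Ptgs2, chr1:150099781-150100030, plus strand: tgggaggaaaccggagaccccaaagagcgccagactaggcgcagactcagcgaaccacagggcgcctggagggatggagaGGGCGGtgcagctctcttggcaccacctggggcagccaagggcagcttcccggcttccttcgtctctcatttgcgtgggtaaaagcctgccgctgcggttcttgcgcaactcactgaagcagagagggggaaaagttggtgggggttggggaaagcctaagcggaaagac
Ptges, chr2:30903298-30903547, minus strand: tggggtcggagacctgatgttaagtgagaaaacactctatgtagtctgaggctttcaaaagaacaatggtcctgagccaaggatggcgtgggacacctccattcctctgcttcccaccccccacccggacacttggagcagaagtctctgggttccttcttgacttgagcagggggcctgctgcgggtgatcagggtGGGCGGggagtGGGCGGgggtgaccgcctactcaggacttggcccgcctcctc
Ptger4, chr15:5244188-5244437, minus strand: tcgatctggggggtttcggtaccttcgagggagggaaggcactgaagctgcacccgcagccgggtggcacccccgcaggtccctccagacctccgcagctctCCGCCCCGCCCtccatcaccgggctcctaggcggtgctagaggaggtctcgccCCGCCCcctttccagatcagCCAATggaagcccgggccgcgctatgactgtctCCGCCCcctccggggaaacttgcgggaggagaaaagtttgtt
Ptger2, chr14:44987861-44988110, plus strand: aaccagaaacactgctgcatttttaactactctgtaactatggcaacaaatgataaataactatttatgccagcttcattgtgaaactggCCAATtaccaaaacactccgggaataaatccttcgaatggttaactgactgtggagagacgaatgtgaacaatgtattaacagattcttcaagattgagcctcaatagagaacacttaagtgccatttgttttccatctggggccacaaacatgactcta

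The windows differed in base composition and in matches. The Ptger4 window held 66.8% G and C and 4 GC boxes, of which 1 pair overlapped, and the Ptger2 window held 38.0% G and C and no GC box. Ptges had 2 GC boxes, 53 and 42 bases before the start, Ptgs2 had 1, and Ptgs1 had none. Of all 32851 windows of this length in the table, 32.7% held a GC box and 33.8% a CCAAT, with a median of 52.4% G and C. Among members 9 had a window, and 5 of them held a GC box. The letters TATAAA (12.4% of all windows), TGACGTCA (1.55%) and TGACG (17.8%, and part of the former), searched on both strands, matched in none of the 9. Only these windows were searched, so matches past the annotated start or further upstream would be missed, and no match here does not mean that a promoter lacks the element. CACGTG (6.02% of all windows) matched in Ptges2 and TGANTCA (6.75%) in Ptgds. Of the Ptgs2 window, 183 bases also lie in exons of Ptgs2os, an antisense gene. The Ptgs1 and Ptges windows lie inside the longer RefSeq spans of their genes.

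WT replicate 2 stood apart from the other 7 libraries, so fold changes and list counts are also given without it. Its Spearman correlations with the others were 0.944 to 0.967, against 0.990 to 0.996 among the other 7. All 10 nociceptor markers were highest there, with a summed level of 2196.6 CPM (counts scaled by library total, not by length) against 141.7 to 601.0 elsewhere. All 8 spinal cord neuron markers, all 6 astrocyte markers and all 6 oligodendrocyte markers were lowest there, and the spinal cord markers summed to 535.9 CPM against 959.8 to 1136.1. Oligodendrocyte markers reached 8999.3 to 16165.4 CPM in the other 7 libraries, although ganglia outside the central nervous system should hold few such cells. Astrocyte markers summed to 4008.2 to 5404.1 CPM in those 7 and 1878.5 CPM in WT replicate 2. Values therefore describe the tissue as sequenced, and mean levels over the 8 libraries need not be those of ganglia alone. In whole tissue, fewer cells of a type and less RNA per cell cannot be told apart. For Alyref itself, WT averaged 22.0 ± 2.71 CPM (SD, n = 4) and cKO averaged 20.5 ± 0.946 CPM (SD, n = 4), with overlapping groups (log2 fold change −0.11 ± 0.1, SE; adjusted p = 0.887, edgeR). Gene totals therefore do not check the labels, and cKO below means the libraries labelled cKO.

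Levels fell into steps that held in each library for the enzymes and blurred among the low genes. Ptgds lay above Ptges3 by 14 times in mean TPM, Ptges3 above Ptges2 by 6.05 times, Ptges2 above Ptgs1 by 2.52 times and Ptgs1 above Ptges by 3.06 times. In each of these 4 steps the ranges over the 8 libraries did not overlap. Below them, Ptges and Ptger4 differed by 1.23 times and held that order in 4 of 8 libraries. Ptger4 exceeded Ptger1 in 7 of 8 libraries and Ptger1 exceeded Ptger3 in 8 of 8, with overlapping ranges. Ptger3, Ptgs2 and Ptger2, at 1.08, 0.932 and 0.794 TPM, were not separated beyond their spread. By mean TPM Ptgds ranked above 99.9% of the genes in the table, Ptges3 above 94.6%, Ptgs1 above 49.2% and Ptger2 above 19.8%.

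**Figure D1:**
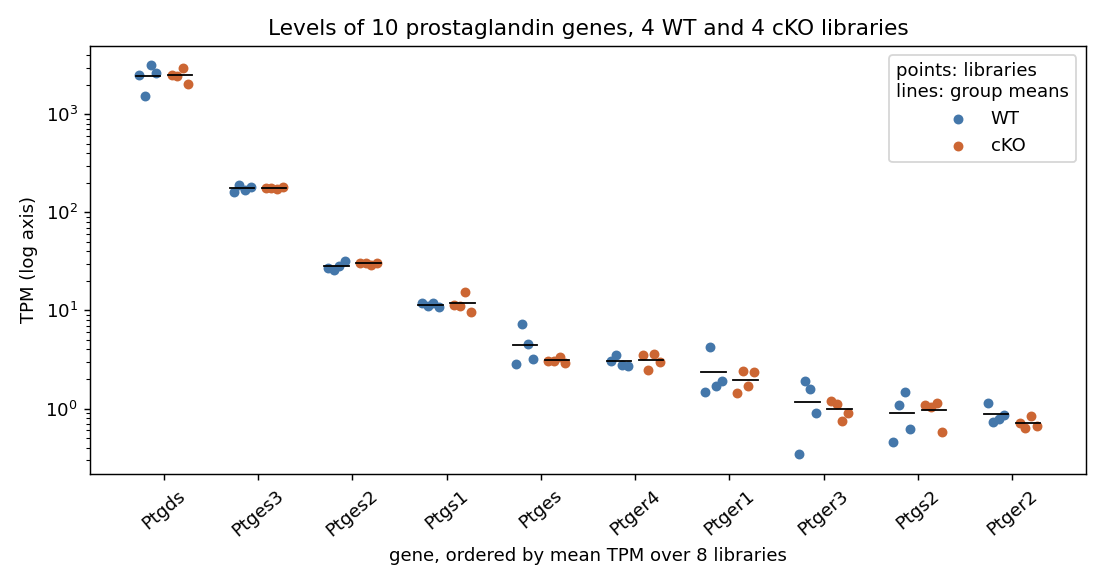
TPM on a log axis of the 10 genes in each library (points, WT blue and cKO orange) with group means as lines, ordered by mean level. Ptgds stands near 2476.6 TPM and the receptors and Ptgs2 between 0.794 and 3.08 TPM on average, and the groups overlap for every gene.

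Constitutive Ptgs1 supplied most cyclooxygenase transcripts in both groups. Ptgs1 (Entrez 19224, chromosome 2, 36216742 to 36258593) is the form that many tissues make at rest. WT libraries 1 to 4 held 11.8, 11, 11.9 and 10.7 TPM of it. In cKO libraries 1 to 4 it stood at 11.3, 11, 15.4 and 9.53 TPM. The highest and the lowest value both lay in cKO, and the WT values lay between them. Its log2 fold change was 0.05 ± 0.12 (SE; 95% interval −0.21 to 0.32; adjusted p = 0.914, edgeR). The interval covers 0.862 to 1.24 times the WT level. Without cKO replicate 3 the value was −0.057, and without WT replicate 2 it was 0.10.

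Ptgs2 (Entrez 19225, chromosome 1, 150100031 to 150108234), the form that cells induce in inflammation, was low and uneven. The WT libraries held 0.46, 1.09, 1.46 and 0.62 TPM and the cKO libraries 1.09, 1.03, 1.14 and 0.57 TPM, in order of replicate. WT replicates 1 and 4 and cKO replicate 4 were low in it, and the other 5 libraries were at 1.03 TPM or above. These values rest on 15 to 51 estimated counts, and a count of 15 has an exact Poisson 95% interval of 8.4 to 24.7, for counting error only. The log2 fold change was 0.03 ± 0.39 (SE; 95% interval −0.86 to 0.92; adjusted p = 0.987, edgeR), so changes within 0.55 to 1.89 times the WT level were not resolved. It was 0.18 ± 0.40 without WT replicate 2 (SE; adjusted p = 1.0), and its sign turned when any 1 of 5 other libraries was left out. Ptgs2 made up 3.76% to 10.9% of cyclooxygenase TPM over the 8 libraries, with means of 7.28% ± 3.25 in WT and 7.47% ± 1.49 in cKO (SD, n = 4 each). The ratio of Ptgs1 to Ptgs2 ran from 8.16 in WT replicate 3 to 25.6 in WT replicate 1, a wider span than in cKO, where it was 10.4 to 16.7.

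Among synthases of prostaglandin E2, Ptges3 held 83.8% to 85.2% of the summed TPM in every library. Ptges3 (Entrez 56351, chromosome 10, 128058982 to 128077254) encodes a cytosolic protein that is also a co-chaperone of heat shock proteins and is made in most cells. It stood at 175.9 ± 12.7 TPM in WT and 177.8 ± 4.37 TPM in cKO (SD, n = 4 each). Ptges2 (Entrez 96979, chromosome 2, 32395890 to 32402740), a membrane-associated form, stood at 28.2 ± 2.60 and 30.2 ± 0.727 TPM. Their log2 fold changes were −0.02 ± 0.09 and 0.07 ± 0.07 (SE; adjusted p = 0.957 and 0.887, edgeR). Both had narrow 95% intervals, 0.853 to 1.14 times WT for Ptges3 and 0.942 to 1.18 times for Ptges2. Without WT replicate 2 the value for Ptges2 was 0.08. For Ptges3 the sign turned with the scale, to 0.018 on log2(TPM + 1), and to 0.074 without WT replicate 2. The annotation holds 1 Ptges3 pseudogene symbol. Estimated counts of Ptges3 were whole numbers in every library, so they show no sign of reads split with another gene. Whether the pseudogene adds reads to Ptges3 was not tested.

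Ptges (Entrez 64292, chromosome 2, 30889471 to 30931020), the microsomal synthase that cells induce along with Ptgs2, had the lowest p of the 10 genes. Its TPM in WT libraries 1 to 4 was 2.86, 7.31, 4.53 and 3.23. Values in cKO libraries 1 to 4 were 3.07, 3.04, 3.32 and 2.92 TPM. WT replicates 2 and 3 lay above all cKO libraries, while WT replicate 1 lay below all of them. The log2 fold change was −0.60 ± 0.32 (SE; 95% interval −1.32 to 0.13; unadjusted p = 0.0975, adjusted p = 0.887, edgeR). Without WT replicate 2 it was −0.17 ± 0.16 (SE; adjusted p = 1.0), with a 95% interval of −0.54 to 0.20.

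Summed fibroblast and perivascular macrophage markers were high in the WT libraries where Ptges was high, but not every marker or cKO library followed. Summed over 6 fibroblast genes, WT libraries 1 to 4 held 677.4, 2813.8, 1157.7 and 876.0 CPM, and the cKO libraries 679.3 to 937.8 CPM. In WT replicate 2 Dcn alone held 1345.5 CPM of that sum, and Pdgfra was at its lowest, 57.8 CPM. For 5 perivascular macrophage genes the sums were 38.8, 111.8, 55.1 and 42.6 CPM in WT and 30.5 to 56.7 CPM in cKO. The 56.7 CPM was in cKO replicate 1, where Ptges was at 5.24 CPM, against 7.62 CPM in WT replicate 3. Nociceptor markers summed to 174.5, 2196.6, 601.0 and 230.3 CPM in WT and 141.7 to 539.2 CPM in cKO. No marker of these 3 lists was at 0 in a library. Their part in the Ptges values was not tested. With the mean nociceptor marker level as a covariate the Ptges log2 fold change was −0.271 (adjusted p = 1, edgeR). All 10 markers behind that covariate were highest in WT replicate 2, so this fit cannot separate nociceptor content from the rest of that library.

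Prostaglandin D2 synthase Ptgds went the other way in WT replicate 2. Ptgds (Entrez 19215, chromosome 2, 25466709 to 25470110) encodes the lipocalin-type enzyme, a secreted protein of meninges, choroid plexus and oligodendrocytes. The WT libraries held 2509.5, 1526.4, 3153.0 and 2638.6 TPM, and the cKO libraries 2498.6, 2466.0, 2980.0 and 2041.0 TPM. WT replicate 2 was the lowest library and WT replicate 3 the highest, so that WT spanned the whole cKO range. Its log2 fold change was 0.01 ± 0.17 (SE; 95% interval −0.37 to 0.40; adjusted p = 0.989, edgeR), and −0.12 ± 0.10 without WT replicate 2 (SE; adjusted p = 1.0).

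Markers of the cell types that make Ptgds did not all share its pattern. Summed oligodendrocyte markers were lowest in WT replicate 2, at 4064.1 CPM, and highest in cKO replicate 4, at 16165.4 CPM, where Ptgds was second lowest at 519.9 CPM. The 8 meningeal markers summed to 132.3 CPM in WT replicate 2 and 126.5 CPM in WT replicate 3, against 62.6 to 91.4 CPM in the other 6 libraries. Of these 8, Slc6a13, Slc47a1, Aldh1a2 and Foxc1 were highest in WT replicate 2, where Ptgds was lowest, and Slc22a6, Slc22a8 and Slc6a20a in WT replicate 3, where Ptgds was highest. Slc13a3 was highest in cKO replicate 4. The part of these cells in the Ptgds values was not tested. Ptgds TPM exceeded the summed TPM of the 3 prostaglandin E2 synthases by 6.82 times in WT replicate 2 and by 9.48 to 15.6 times in the other libraries.

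**Figure D2:**
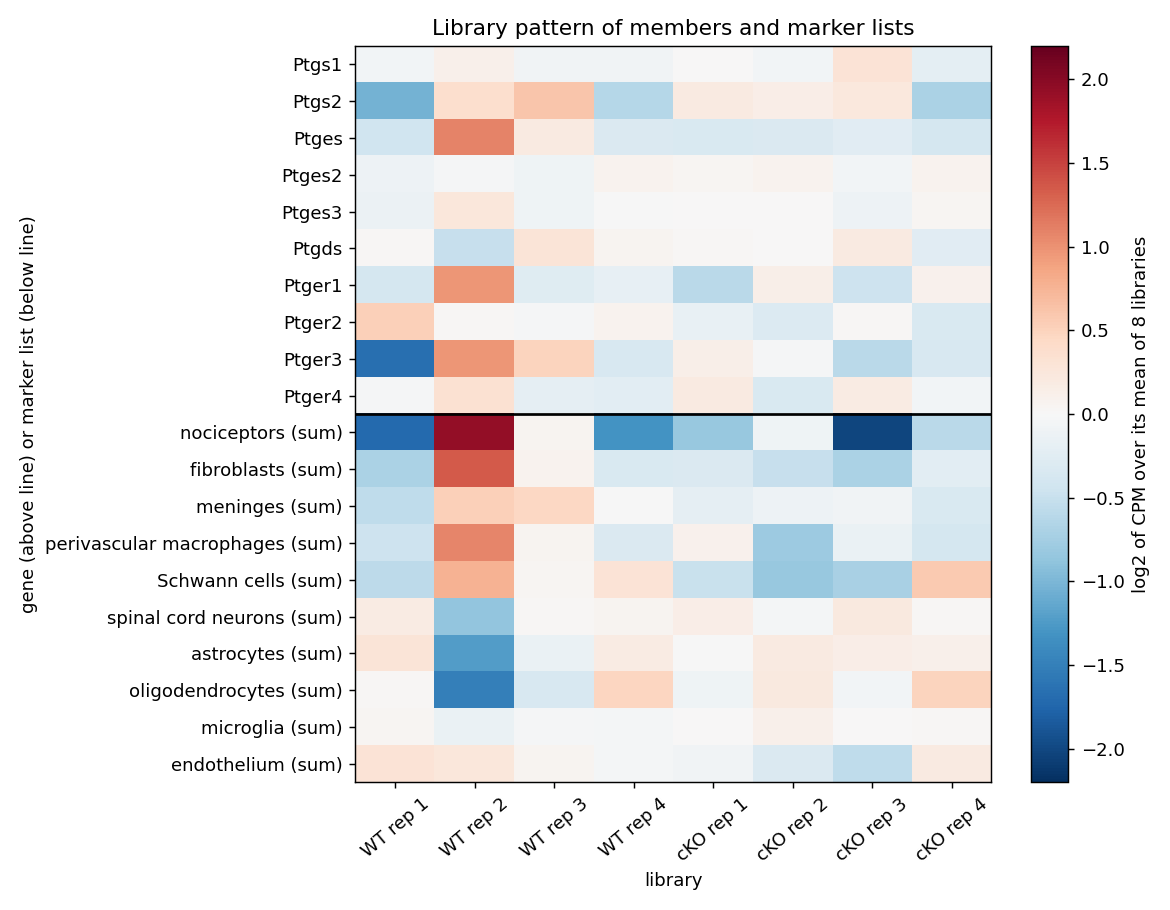
Each cell is log2 of a gene's CPM, or of a marker list's summed CPM, over its own mean of the 8 libraries (columns), with the 10 genes above the line and 10 marker lists below it. Ptges, Ptges3, Ptger1, Ptger3 and Ptger4 are highest in WT replicate 2, along with the nociceptor, fibroblast, meninges, macrophage and Schwann cell lists. Ptgds and the spinal cord, astrocyte, oligodendrocyte and microglia lists are lowest there.

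Of the EP receptors, Ptger4 and Ptger1 made up most transcripts. Summed EP receptor TPM was 10.4 in WT replicate 2 and 6.01 to 6.89 in the other 7 libraries. Ptger4 was the leading receptor in 7 of 8 libraries, with 34.0% to 52.4% of the sum. Ptger1 held 20.9% to 40.7% and led in WT replicate 2. Ptger3 held 5.66% to 23.1% and Ptger2 7.04% to 19.0%. Mean shares in WT and cKO were 42.0% ± 7.07 and 46.1% ± 7.21 for Ptger4, and 30.0% ± 7.57 and 29.0% ± 7.36 for Ptger1 (SD, n = 4 each), differences within the spread of either group.

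**Figure D3:**
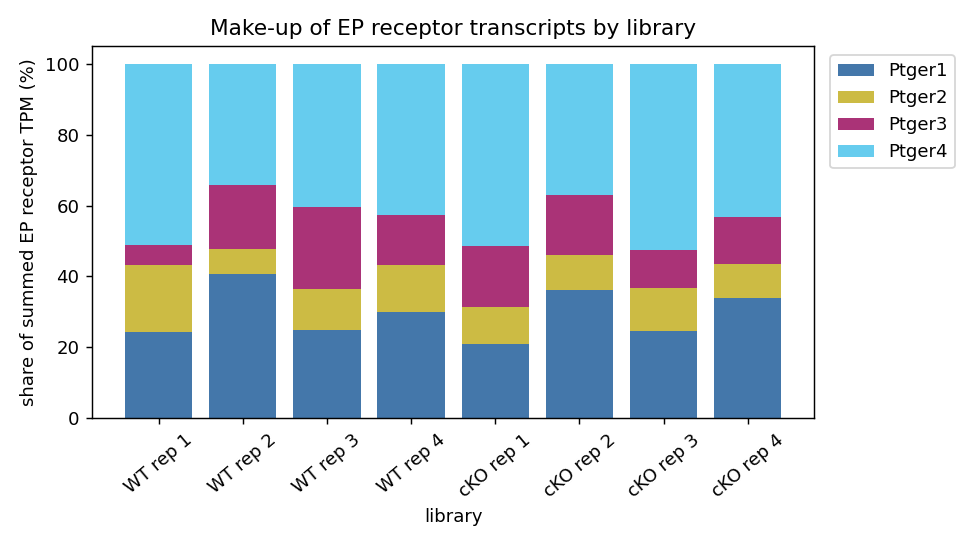
Stacked bars give the percent of summed EP receptor TPM held by each receptor in the 8 libraries. Ptger4 leads everywhere except WT replicate 2, where Ptger1 holds 40.7%, and Ptger3 is at its smallest, 5.66%, in WT replicate 1.

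Ptger4 (Entrez 19219, chromosome 15, 5233399 to 5244187) was the steadiest receptor. Its TPM was 3.07, 3.53, 2.77 and 2.74 in WT libraries 1 to 4 and 3.53, 2.46, 3.59 and 2.98 in cKO libraries 1 to 4. Both groups covered nearly the same range. The log2 fold change was 0.02 ± 0.18 (SE; 95% interval −0.39 to 0.44; adjusted p = 0.977, edgeR), or 0.16 without WT replicate 2.

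Ptger1 (Entrez 19216, chromosome 8, 83666644 to 83672756) stood clear of the rest in 1 WT library. WT libraries held 1.46, 4.22, 1.71 and 1.93 TPM, and cKO libraries 1.43, 2.4, 1.69 and 2.34 TPM. WT replicate 2 lay above the other 7, which overlapped between the groups. The log2 fold change of −0.33 ± 0.34 (SE; 95% interval −1.10 to 0.45; adjusted p = 0.887, edgeR) turned to 0.10 ± 0.20 without that library (adjusted p = 1.0).

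Ptger3 (Entrez 19218, chromosome 3, 157566821 to 157644758) varied most of the 10, by 6.17 times in CPM between its extreme libraries. WT libraries held 0.34, 1.89, 1.58 and 0.90 TPM, and cKO libraries 1.18, 1.12, 0.74 and 0.91 TPM. Both the highest and the lowest libraries were WT. WT replicate 1 and cKO replicate 3 were lowest in Ptger3 and also in nociceptor marker sum, at 174.5 and 141.7 CPM, and WT replicates 2 and 3 led in both. WT replicate 4 and cKO replicate 4 tied next in Ptger3, with 13 counts each, but had nociceptor sums of 230.3 and 382.3 CPM. Summed fibroblast markers were also lowest in WT replicate 1 and cKO replicate 3, at 677.4 and 679.3 CPM. They were highest in WT replicates 2 and 3, at 2813.8 and 1157.7 CPM. The part of nociceptor or fibroblast content in the Ptger3 values was not tested. Counts were 5 to 35 per library, and a count of 5 has an exact Poisson 95% interval of 1.62 to 11.7. The log2 fold change was −0.35 ± 0.48 (SE; 95% interval −1.45 to 0.75; adjusted p = 0.888, edgeR). It was 0.06 ± 0.44 without WT replicate 2 (SE; adjusted p = 1.0) and 0.117 with the nociceptor covariate (adjusted p = 1). As for Ptges, that covariate cannot separate nociceptor content from the rest of WT replicate 2.

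Ptger2 (Entrez 19217, chromosome 14, 44988111 to 45003820) had the lowest mean level and did not follow WT replicate 2. WT libraries held 1.14, 0.73, 0.79 and 0.85 TPM, and cKO libraries 0.71, 0.64, 0.83 and 0.66 TPM. WT replicate 1 was the highest, and cKO replicate 3 lay among the remaining WT libraries. The log2 fold change was −0.36 ± 0.21 (SE; 95% interval −0.84 to 0.12; unadjusted p = 0.127, adjusted p = 0.887, edgeR), and −0.40 ± 0.23 without WT replicate 2. Without WT replicate 1 it was −0.217. Counts of 18 to 31 per library limit its precision.

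Taking the 10 genes as a list, 5 had a fitted log2 fold change above 0 and 5 below, with a median log2 fold change of −0.0043. Over all tested genes the fitted fold was above 0 for 48.5% and below 0 for 51.5%, and the median was −0.0048. Without WT replicate 2 the members divided 7 above and 3 below with a median of 0.08. Over all 15119 genes tested in that fit, 7568 lay above 0 and 7551 below, with a median of 0.0002. Ptges, Ptger1 and Ptger3 moved most between both fits.

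**Figure D4:**
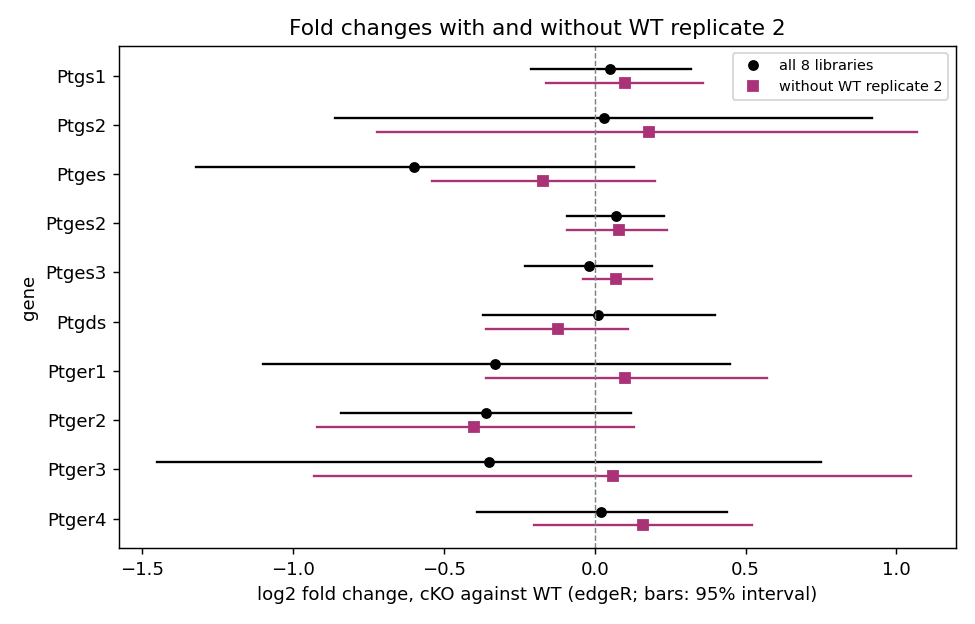
Log2 fold changes of cKO against WT from edgeR with 95% intervals for the 10 genes, with all 8 libraries (black circles) and without WT replicate 2 (purple squares). All intervals include 0, and the values of Ptges, Ptger1 and Ptger3 move from −0.60, −0.33 and −0.35 to −0.17, 0.10 and 0.06.

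Genes around the pathway were read from the same fit. Of 12 phospholipases and other lipases that feed arachidonic acid, 8 had a fold above 0 and 4 below (median 0.033), and 0 passed. Without WT replicate 2 they divided 6 above and 6 below, with a median of 0.0051. The list's lowest p values were those of Faah, which hydrolyses anandamide, at 16.5 ± 4.47 and 20.3 ± 0.640 TPM, and of Daglb, a diacylglycerol lipase, at 16.8 ± 2.80 and 18.7 ± 0.590 TPM in WT and cKO (SD, n = 4 each). Neither passed (adjusted p = 0.887, edgeR), and without WT replicate 2 their log2 fold changes went from 0.28 and 0.13 to 0.13 and 0.05. Pla2g4a, the main arachidonate-releasing phospholipase, stood at 14.5 ± 4.5 and 15.4 ± 2.18 TPM and is named after its values were seen.

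Enzymes and receptors of the other prostanoids had 8 of 10 tested members with a fold below 0 and a median of −0.43, and 0 passed, with 1 at an unadjusted p below 0.05. That gene was Ptgis, the prostacyclin synthase of vessel walls, at 7.82 ± 1.89 TPM in WT and 5.45 ± 1.12 TPM in cKO (SD, n = 4 each). Its log2 fold change was −0.57 ± 0.24 (SE; unadjusted p = 0.0409, adjusted p = 0.887, edgeR), and −0.32 ± 0.17 without WT replicate 2 (adjusted p = 1.0). Summed endothelial markers were 95.8 to 121.7 CPM in WT and 66.7 to 113.0 CPM in cKO, but their order by library differed from that of Ptgis. Of the cKO libraries, replicate 3 had the lowest sum and the highest Ptgis, 5.33 CPM. Replicate 4 had the highest sum in cKO and the lowest Ptgis, 3.62 CPM. In WT the sum peaked in replicate 1 and Ptgis in replicate 2, at 9.18 CPM. The part of endothelial content was not tested. Prxl2b, a synthase of prostaglandin F2 alpha, stood at 171.2 ± 29.7 and 196.6 ± 14.8 TPM (adjusted p = 0.887, edgeR), with a log2 fold change of 0.18, or 0.12 without WT replicate 2. Of the 10 tested members, 5 lay above 0 and 5 below without WT replicate 2, with a median of 0.02. Ptgdr, a receptor of prostaglandin D2, and Ptgir, the prostacyclin receptor, are named after their values were seen. Ptgdr was at 13.9 TPM in WT replicate 2 against 2.39 ± 0.855 TPM in cKO, and its log2 fold change was −1.17 with that library and 0.24 without it. Ptgir gave −1.13 and −0.06.

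Turnover and transport genes had 2 of 6 with a fold above 0 and 4 below (median −0.11), and 0 passed. Without WT replicate 2 the median was −0.0106, with the same division. Hpgd, which inactivates prostaglandins, stood at 20.7 ± 3.66 TPM in WT and 25.3 ± 3.22 TPM in cKO, and Abcc4, which exports them, at 6.73 ± 0.268 and 6.12 ± 0.600 TPM (SD, n = 4 each; adjusted p = 0.887 for both, edgeR). Their log2 fold changes were 0.27 and −0.17, and 0.20 and −0.11 without WT replicate 2. Of 24 genes of G proteins, adenylyl cyclases and protein kinase A downstream of EP receptors, 16 lay above 0 and 8 below (median 0.05), and 0 passed. Without WT replicate 2 they divided 9 above and 15 below, with a median of −0.02. Prkar2b and Prkar2a, regulatory subunits of protein kinase A, had the lowest p values of that list. Prkar2b stood at 156.7 TPM in WT replicate 2, 53.0 to 87.6 TPM in the other WT libraries and 58.9 ± 6.59 TPM in cKO. Prkar2a stood at 36.4 ± 5.58 and 31.8 ± 1.88 TPM (SD, n = 4 each; adjusted p = 0.887 for both, edgeR). Log2 fold changes of Prkar2b and Prkar2a were −0.68 and −0.23, and −0.17 and −0.09 without WT replicate 2. These lists had 0 genes at an unadjusted p below 0.05. DESeq2 and limma-voom also called 0 genes in every list.

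Some genes had library profiles close to those of the 4 members that ranged over at least 1 log2 unit. Closeness was the root mean square difference of centred log2 CPM over the 8 libraries, which share 1 library that stands apart. For Ptges the nearest were Trim12c, Ggta1 and Abca9, at 0.046, 0.06 and 0.088 log2 units. Trim12c was again nearest over 7 libraries, without WT replicate 2, at 0.039. For Ptger1 they were Bag3, Itgb3bp and Card19, at 0.124, 0.125 and 0.128, and none of these was among the nearest 3 over 7 libraries. For Ptger3 they were B3gnt5, Il7 and P2rx2, an ATP-gated channel subunit of sensory neurons, at 0.155, 0.179 and 0.194. P2rx2 was low, at 0.264 to 2.56 CPM. Without WT replicate 2 B3gnt5 was again nearest, at 0.162, but Bank1 and C1s1 took the places of Il7 and P2rx2. For Ptgs2 they were Fbxl7, Gpr182 and Orc1, at 0.233 to 0.275, and over 7 libraries Slfn8, Pira1 and Ifi209, at 0.105, 0.174 and 0.185.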

How the data were processed

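RNA was measured in 8 libraries of mouse dorsal root ganglia, 4 per group, made from Trizol-extracted RNA with an mRNA kit per the labels' protocols. The authors' estimated counts, deposited without depth scaling, were not whole for 10.27% to 10.99% of values and were rounded. Per the file headers, the authors also deposited TPM and FPKM. The deposited scaled counts, a signal with no stated method, and the FPKM were not used. The submitters' processing notes list RSEM 1.3.1, HISAT2 2.2.1 and Bowtie2 2.4.5, and as builds mm10 and GRCm38, with no role for any. Columns called Ctrl were matched to the samples titled WT with the same number.

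Genes kept by filterByExpr (15098 of 18560) were tested with edgeR 4.0.16 in R 4.3.3 (TMM, quasi-likelihood, group only, Benjamini-Hochberg over all tested genes, threshold 0.05). Standard errors came from the fold change and F statistic. CPM used TMM-scaled totals, and log2 CPM for covariate and neighbour profiles had a prior count of 2. Alternatives, 17 in all, used RLE factors, no filter, DESeq2 1.42.0, voom and log2(TPM + 1 or 0.1) in limma 3.58.1, a replicate block, a nociceptor covariate (10 genes) and each library left out. The edgeR step was tested on simulated data. Members and lists were chosen with earlier results of these data known. Named genes were all members, list genes past the threshold or else the 2 of lowest p, and the 3 nearest profiles of members ranging over at least 1 log2 unit. Prxl2b was also listed under an older symbol with no row. Ptgdr2 did not pass the filter. Positions and promoters came from RefSeq (GRCm38.p6), matched for 10 and 9 members, and exon overlaps from GENCODE vM21. A result on exon overlap is not reported here. Which library belonged to which of the 4 batches in the design text is not stated, so batch and library cannot be told apart. That text calls the libraries biological replicates without naming animals, so p-values measure the spread between these libraries. All library pairs differed by more than sampling noise (chi-square 3.57 to 107 per degree of freedom).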

Additional observations from a re-analysis of the deposited data

Results flagged for a closer look

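Among the 10 members and 10 named list genes, 40 groups of 4 libraries were examined for 1 library standing clear of the other 3, by Dixon's ratio at its 95% limit, and 7 groups had one. Chance flags about 1 in 20 groups, but over all 15098 tested genes 13% of WT groups and 4.77% of cKO groups had such a library, and it was WT replicate 2 for 11.6% of genes. The list genes were chosen by low p, so their share is not comparable with these. WT replicate 2 was that library in 5 of the 7. It was the highest WT library for Ptgs1, at 22.1 CPM against 19.3 to 19.6 in the other 3 (in TPM it lay within the range of the other WT libraries), for Ptger1, at 9.35 CPM against 3.63 to 4.17, for Alox5, at 10.4 CPM against 3.76 to 4.29, and for Alox12, at 9.06 CPM against 1.65 to 2.44. It was the lowest WT library for Daglb, at 21.0 CPM against 26.2 to 26.8. The Ptger2 value of WT replicate 1, 2.04 CPM, lay above 1.40 to 1.49 in the other WT libraries. The Ptgs2 value of cKO replicate 4, 1.25 CPM, lay below 2.24 to 2.38 in the other cKO libraries.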

How the results depend on the processing

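Under all 17 alternatives 0 of the 10 members and 0 genes of the 5 lists passed, and the lowest adjusted p of a member was 0.631. Over all genes the count was 0, and 1 with DESeq2, 1 with limma on log2(TPM + 1) without the filter, and 0 to 1 with single libraries left out (1 without WT replicate 2). Ptges, Ptges2 and Ptger2 kept their direction in every alternative. With single libraries left out, log2 fold changes ran from −0.769 to −0.168 for Ptges, −0.433 to −0.217 for Ptger2, −0.057 to 0.123 for Ptgs1, −0.192 to 0.318 for Ptgs2, −0.065 to 0.074 for Ptges3, −0.123 to 0.126 for Ptgds, −0.469 to 0.104 for Ptger1, −0.647 to 0.064 for Ptger3 and −0.042 to 0.159 for Ptger4. The sign of Ptges3 also turned to 0.018 on log2(TPM + 1), with or without the filter, and on log2(TPM + 0.1). With the nociceptor covariate it turned for Ptges3 (0.035), Ptgds (−0.061) and Ptger3 (0.117). The cause was not tested. Deviations of same-numbered libraries from their group means correlated at 0.008, 0.045, −0.037 and 0.253. Only WT replicate 4 had the cKO library of its own number as best partner. These values cannot exclude pairing by number, since WT replicate 2 shifts the mean behind all WT deviations. With the replicate block 0 genes passed and Ptges was at −0.471. Ptgs2, Ptger2 and Ptger3 rest on 5 to 51 counts a library. For Ptgs2 and Ptger3 the Poisson intervals of the extreme WT libraries did not overlap.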

Other observations

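The lipoxygenase branch, which turns the same arachidonic acid into leukotrienes, had 8 of 10 tested genes with a fold below 0 in cKO and 2 above, the median being −0.44 in log2 fold change. In edgeR 0 passed, with 0 at an unadjusted p below 0.05. Without WT replicate 2 the list divided 6 below and 4 above, and the median was −0.12. Alox5, which starts leukotriene synthesis, stood at 2.88, 7.15, 3.09 and 3.37 TPM in WT libraries 1 to 4 and at 2.71 ± 0.648 TPM in cKO (SD, n = 4). In log2 terms cKO differed from WT by −0.68 ± 0.36 (SE; adjusted p = 0.887, edgeR), and by −0.19 ± 0.19 without WT replicate 2 (adjusted p = 1.0). Alox12, the 12-lipoxygenase of platelets, stood at 1.17, 5.79, 1.77 and 1.59 TPM in WT and 1.32 ± 0.711 TPM in cKO, with a log2 fold change of −1.07 ± 0.63 (SE; adjusted p = 0.887, edgeR) that ran from −1.316 to −0.192 with single libraries left out. Summed perivascular macrophage markers were 111.8 CPM in WT replicate 2 and 30.5 to 56.7 CPM in the other 7 libraries, and microglia markers 264.6 and 282.0 to 316.0 CPM. Nociceptor, fibroblast, meningeal, Schwann cell and mast cell sums were also highest in WT replicate 2. Of the cKO libraries, replicate 1 had the highest macrophage sum with Alox5 at 3.41 CPM, and replicate 3 the highest Alox5, 4.58 CPM. The part of any of these cells in the Alox5 and Alox12 values was not tested.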
